A study of Homo sapiens and Canis lupus familiaris with 27 samples.

Results

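Collagen genes, together with SPARC and FN1, were followed in 3 prostate carcinoma cell lines exposed to PDA-66, an indolylmaleimide. The members were the rows of the gene count tables whose name is COL, a number, A and a number, plus SPARC and FN1. They made up 46 of the 25300 gene names listed. All 46 were in the PC-3 and LNCaP tables of 23708 genes each, and 33 were among the 16028 genes of the CT1258 table. PC-3 is a human prostate adenocarcinoma line from a bone marrow metastasis, LNCaP a human line from a lymph node metastasis, and CT1258 a canine prostate adenocarcinoma line. All were cultured as cell lines, without the stroma of a tumor. In each line, control cells under 0.15% DMSO for 24 h were set beside cells under PDA-66 at 15 µM, collected either after 12 h or after 24 h, with no knockout or second agent in any group. There were 3 libraries in each group except PC-3 DMSO, where counts of 2 libraries were used. Per the study's methods, the other PC-3 control had been left out as an outlier after multidimensional scaling. The same DMSO libraries served both times, so the 12 h and 24 h comparisons share their controls and the 12 h cells were compared with controls of 24 h. Each line was grown in a medium of its own.

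Collagens are proteins of 3 chains wound into a triple helix and secreted into the extracellular matrix. Fibrillar collagens, such as types I, III and V, form the banded fibrils of connective tissue. Network collagens, such as type IV of basement membranes, form sheets. Fibril-associated collagens, such as types IX and XII, sit on the surface of fibrils and link them to other molecules. Type VI forms beaded filaments around cells, and type VII forms the fibrils that anchor the basement membrane to the stroma below it. SPARC is a secreted protein that binds collagen, and FN1 encodes fibronectin, the matrix glycoprotein onto which cells assemble fibrils. Carcinoma cells can make matrix of their own, and collagens are otherwise made largely by stromal cells.

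The tables listed 11 fibrillar, 9 network, 10 fibril-associated and 5 beaded filament collagens in the human lines, and 9, 6, 9 and 3 in CT1258. Many were hardly counted. At most 10 reads in any library were counted for 18 of 46 members in PC-3, 23 of 46 in LNCaP and 19 of 33 in the canine line. The filter on low counts left 26 members tested for PC-3, 21 for LNCaP and 13 for CT1258. Medians and counts below cover those members only. The total count per library was 14650839 to 18091755 in PC-3 and 11923105 to 14741883 in LNCaP, while CT1258 had 7203534 to 20976950, where the DMSO libraries were 2.64 times as deep as the treated ones. Levels are given as CPM, counts scaled to a common library total with TMM factors within each line.

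Some libraries stood apart from others of their group. The mean chi-square per gene between LNCaP 12 h replicate 2 and the other 12 h libraries was 171 and 217, against 7.49 between those other libraries. CT1258 DMSO replicate 2 was at 50.8 and 51.0 from the other controls, which were at 3.81 from each other. The PC-3 controls were at 35.3 from each other. The luminal markers KLK2, KLK3, TMPRSS2 and FOLH1 were above 1 CPM in LNCaP under DMSO. In PC-3 these were under 1 CPM, SLC45A3 was at 25.4 ± 7.74 CPM (SD, n = 2), and 6 of 7 epithelial markers were above it. In CT1258, 3 of the 7 epithelial markers were listed (EPCAM, CLDN4 and GRHL2) and each was under 1 CPM. Of the luminal markers there, TMPRSS2 was under 1 CPM, while KLK2 was at 5.91 ± 4.25, FOLH1 at 3.26 ± 0.443 and SLC45A3 at 14.4 ± 1.58 CPM under DMSO (SD, n = 3). The fibroblast list had a sum under DMSO of 1.42 to 1.54 CPM in PC-3 and 1.55 to 2.63 CPM in LNCaP. In CT1258 the sum was 262 to 322 CPM, nearly all of it LUM at 293 ± 30.0 CPM (SD, n = 3).

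Genes of type IV collagen lie in head-to-head pairs, and the stretch between paired start sites is upstream of both members, which the tests treat as separate rows. RefSeq promoters (GRCh38.p14) matched 34 of the 46 members by symbol, and each stretch printed here was placed on GRCh37 (hg19, the authors' human build) by an exact match. COL4A1 (chr13:110801310-110959504, minus strand) and COL4A2 (chr13:110958159-111165556, plus strand) share the stretch chr13:110959505-110959604. The annotated span of COL4A2 begins before that stretch, within COL4A1. The RefSeq start site used here follows chr13:110959630, so the stretch lies inside the span and outside its exons. COL4A5 (chrX:107683068-107940775, plus strand) and COL4A6 (chrX:107398837-107682727, minus strand) share part of chrX:107682818-107683067. COL7A1 (chr3:48601506-48632762, minus strand) has chr3:48632763-48633012 upstream of its start and is shown because it fell after PDA-66 in both PC-3 and CT1258. Capitals mark a CCAAT box (CCAAT, or ATTGG on the other strand), a GC box (GGGCGG or CCGCCC) or a TATA box (TATAAA or TTTATA), and each stretch reads 5′ to 3′ on the strand of the gene named.
COL4A2: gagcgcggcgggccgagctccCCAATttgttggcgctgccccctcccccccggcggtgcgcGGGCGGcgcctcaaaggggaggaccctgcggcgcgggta
COL4A5: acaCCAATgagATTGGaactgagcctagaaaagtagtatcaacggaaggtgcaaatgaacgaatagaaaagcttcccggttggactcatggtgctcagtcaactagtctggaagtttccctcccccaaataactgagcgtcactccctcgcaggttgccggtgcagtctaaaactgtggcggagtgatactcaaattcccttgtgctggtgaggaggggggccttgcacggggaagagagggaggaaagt
COL7A1: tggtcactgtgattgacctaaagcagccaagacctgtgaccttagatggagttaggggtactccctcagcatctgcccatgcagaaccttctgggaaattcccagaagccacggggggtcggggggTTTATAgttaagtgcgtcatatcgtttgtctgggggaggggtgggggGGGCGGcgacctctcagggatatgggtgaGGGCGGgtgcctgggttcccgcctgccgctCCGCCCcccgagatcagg

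In the 250 bases upstream of the start, a CCAAT box was in 10 of the 34 members and in 33.0% of 27305 promoters. A GC box was in 19 of 34, against 42.3% of all promoters. The TATA box was in 5 of 34, against 11.1%, and an AP-1 site (TGANTCA) in 0 of 34, against 6.60%. Paired members share part of their windows, so these counts are not over independent stretches. A match here is a run of letters and not a measured binding site.

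Under DMSO the members with the highest mRNA levels were partly shared by the lines, with COL6A1 among them in each. Per kilobase of transcript, the highest members in PC-3 were COL6A1 at 221 ± 77.2 CPM per kb, COL5A2 at 104 ± 12.7 and COL6A2 at 83.0 ± 25.0 (SD, n = 2). The libraries of COL5A2 and COL6A2 overlapped. In LNCaP the highest were FN1 at 39.2 ± 3.53 CPM per kb, COL6A1 at 33.5 ± 5.11, COL4A5 at 20.2 ± 0.840 and COL6A2 at 14.0 ± 1.88 (SD, n = 3). FN1 and COL6A1 overlapped there. For CT1258, without lengths, the highest levels were COL5A2 at 597 CPM, SPARC at 114 CPM, COL1A2 at 86.6 CPM and COL6A1 at 84.5 CPM. FN1 and COL6A2 of CT1258 were not analysed here.

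In a fit of the human libraries, 40.8% of 15018 genes differed between PC-3 and LNCaP under DMSO at an adjusted p under 0.001 (edgeR quasi-likelihood test), and 19 of the 29 members tested did, 16 higher in PC-3 and 3 lower. Of the 18 that passed the filter in both lines, 12 were called. The others passed it through 1 line, which favors a difference. COL5A2, a chain of the fibrillar type V collagen, was higher in PC-3 by 7.87 ± 0.30 on the log2 scale (SE, adjusted p = 9.28e-13). SPARC was higher by 4.50 ± 0.32 (adjusted p = 1.7e-09). FN1 was lower in PC-3 (-2.36 ± 0.27, adjusted p = 7.3e-07), as was COL9A2, a chain of the fibril-associated type IX collagen (-4.53 ± 0.67, adjusted p = 1.62e-05). Without PC-3 DMSO replicate 3, COL9A2 (adjusted p = 0.00124) and COL4A6 (0.00267) were no longer called, and without replicate 2, COL5A1 (0.0025) and COL6A2 (0.00123) were not. COL1A2, a chain of type I collagen, had no read in any LNCaP DMSO library, and its mean of 44.1 CPM in PC-3 was at least 577-fold higher than the limit of 3 counts over that group. Line and medium cannot be told apart in this comparison.

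**Figure D1:**
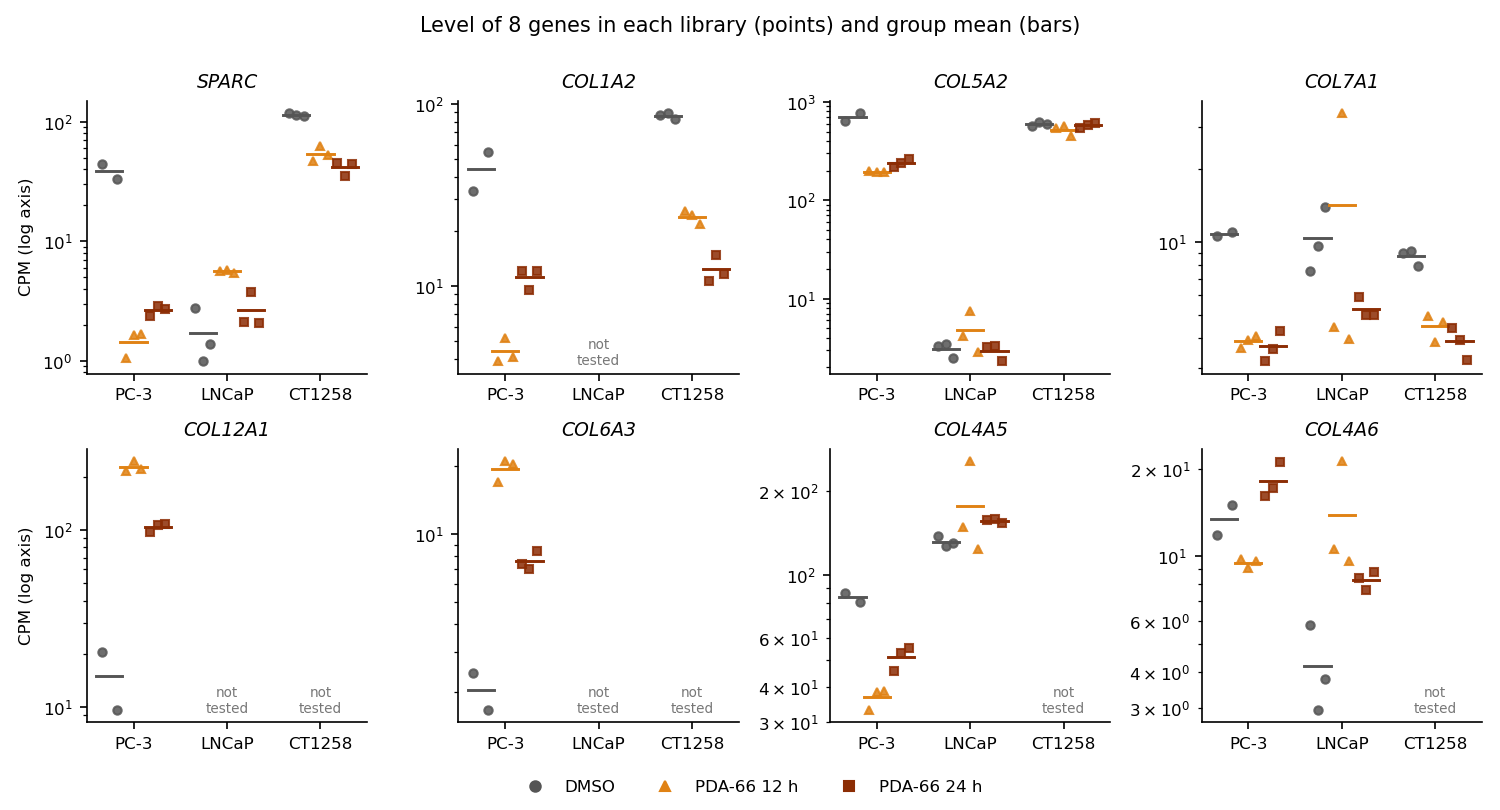
Levels of 8 members in every library, in CPM on a log axis, by cell line and group; each point is 1 library, short bars are group means, and "not tested" marks a line where the member was filtered out or not listed. SPARC, COL1A2 and COL5A2 fell in PC-3 while COL12A1 and COL6A3 rose there, with every treated PC-3 library outside the range of its 2 controls.

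In PC-3, PDA-66 lowered SPARC and 3 fibrillar collagens and raised a fibril-associated and a type VI collagen. After 12 h, 10 of 26 members had an adjusted p under 0.001, 3 higher and 7 lower, against 27.6% of the 13777 genes tested (13% higher and 14.6% lower). After 24 h 9 did, 2 higher and 7 lower, against 19.3% of genes (8.88% higher and 10.5% lower). The median log2 fold change of the members was -0.32 at both times, and of all genes tested -0.0052 and -0.010. Treated and control libraries did not overlap for 14 of the 26 members at 12 h and 13 at 24 h, against 70.9% and 61.9% of all genes. The members ranged from -4.75 for SPARC to 3.91 for COL12A1 at 12 h. In bulk RNA, fewer cells of a kind and less RNA per cell cannot be told apart.

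SPARC (chr5:151040657-151066536) was at 44.3 and 33.1 CPM in the PC-3 controls, at 1.05, 1.63 and 1.66 CPM after 12 h and at 2.37, 2.87 and 2.71 CPM after 24 h. Every treated library was far below both controls. The log2 fold change was -4.75 ± 0.19 at 12 h (SE, adjusted p = 1.29e-09), 26.8-fold lower, and -3.87 ± 0.18 at 24 h (adjusted p = 1.55e-08), 14.6-fold lower. SPARC also encodes a protein known to bind fibrillar and type IV collagen as they leave the cell.

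Of the fibrillar collagens in PC-3, 6 of 11 were tested and 3 fell at both times, with a class median of -1.07 at 12 h and -0.84 at 24 h. COL1A2 (chr7:94024207-94060539), the alpha 2 chain of type I collagen, was at 33.4 and 54.9 CPM in the controls, 3.86, 5.22 and 4.09 CPM after 12 h and 12.2, 9.53 and 12.2 CPM after 24 h. No treated library reached a control, and the 24 h libraries lay above those of 12 h. Its log2 fold change was -3.33 ± 0.21 (adjusted p = 4.7e-08), 10.1-fold lower, and then -1.97 ± 0.19 (adjusted p = 4.76e-06), 3.91-fold lower. COL1A1 (chr17:48261462-48278993), which encodes the other chain of type I, did not follow. It was at 9.05 and 9.25 CPM in the controls, 6.01, 8.09 and 9.36 CPM after 12 h and 6.34, 6.66 and 9.20 CPM after 24 h. The groups overlapped at 12 h, with log2 fold changes of -0.23 (adjusted p = 0.347) and -0.31 (adjusted p = 0.216).

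COL5A2 (chr2:189896624-190090038), the alpha 2 chain of type V collagen, which sets the diameter of type I fibrils, carried 87.2% of the fibrillar counts under DMSO. It was at 647 and 769 CPM in the controls, 196, 193 and 193 CPM after 12 h and 216, 241 and 264 CPM after 24 h. The treated libraries were close to each other and all below the controls. COL5A2 fell by 1.87 on the log2 scale at 12 h (SE 0.11, adjusted p = 2.3e-08) and by 1.56 at 24 h (SE 0.11, adjusted p = 2.72e-07). COL5A1, encoding its partner chain, was at 56.0 and 29.1 CPM in the controls, and its 6 treated libraries lay between them, at 32.1 to 37.6 CPM. COL3A1 (chr2:189839099-189877472), the type III collagen of extensible tissues and the neighbor of COL5A2 on chromosome 2, was at 5.00 and 6.17 CPM, then 1.27, 1.04 and 0.651 CPM, then 2.19, 1.71 and 2.64 CPM. All treated libraries were lower (12 h -2.48 ± 0.27, adjusted p = 5.65e-06, and 24 h -1.36 ± 0.24, adjusted p = 4.74e-04). The 24 h call of COL3A1 was lost without DMSO replicate 3 (adjusted p = 0.00387), without the 12 h library P12-2 (0.00103) and without 24 h replicate 1 (0.00241), 2 (0.00349) or 3 (0.00115).

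The fibril-associated collagens of PC-3 went in both directions, with 4 of 10 tested, 1 higher and 1 lower at each time. COL12A1 (chr6:75794042-75915983), the long type XII chain found on fibrils of dense connective tissue, was at 20.5 and 9.72 CPM in the controls, 216, 244 and 221 CPM after 12 h and 97.1, 107 and 108 CPM after 24 h. The treated libraries were above both controls at each time, and those of 24 h lay between the controls and those of 12 h. The log2 fold change was 3.91 ± 0.23 (adjusted p = 2.39e-08), 15.0-fold, and 2.79 ± 0.22 (adjusted p = 7.98e-07), 6.89-fold. COL12A1 was 66.8% of the fibril-associated counts under DMSO and 98.4% after 12 h. COL9A3 (chr20:61447596-61472511), a chain of the cartilage type IX collagen, went the other way, from 3.65 and 4.02 CPM to 0.497, 0.196 and 0.651 CPM and then 1.19, 0.428 and 1.49 CPM. Every treated library was lower (-3.05 ± 0.41, adjusted p = 3.76e-05, and -1.90 ± 0.36, adjusted p = 8.11e-04). At 24 h this call held in 8 of 16 alternatives. It was lost without any library but P12-2, with an adjusted p of up to 0.00413, that without DMSO replicate 3.

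Type VI collagen, the beaded filament around cells, changed in 1 of its 3 tested chains. COL6A3 (chr2:238232646-238322971), the large alpha 3 chain, was at 2.43 and 1.68 CPM in the PC-3 controls, 17.0, 21.0 and 20.5 CPM after 12 h and 7.35, 7.03 and 8.39 CPM after 24 h. All treated libraries were above the controls, with 24 h between. The log2 fold change was 3.24 ± 0.20 (adjusted p = 3.35e-08), 9.47-fold, and 1.88 ± 0.21 (adjusted p = 1.32e-05), 3.68-fold. The 24 h call was lost with limma voom (1.81, adjusted p = 0.00313). COL6A1 and COL6A2 (chr21:47401684-47424964 and chr21:47518026-47552762), the partner chains, had no call. COL6A1 was at 1159 and 700 CPM, then 546, 579 and 604 CPM, then 553, 587 and 727 CPM, a fold change of -0.69 (adjusted p = 0.00383) and -0.58 (adjusted p = 0.0133). COL6A2 was at 347 and 225 CPM, then 266, 297 and 290 CPM, then 233, 256 and 325 CPM, with treated libraries between the controls (-0.01, adjusted p = 0.97, at 12 h).

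Of the network collagens, 6 of 9 were tested in PC-3. COL4A2 rose and COL4A5 fell at 12 h, and COL4A5 alone was called at 24 h, with class medians of -0.13 and 0.42. COL4A5, a chain of the kidney and lens type IV collagen, was at 86.8 and 80.2 CPM, 33.2, 38.4 and 38.8 CPM after 12 h and 45.5, 52.8 and 55.3 CPM after 24 h. The treated libraries were all below the controls (-1.18 ± 0.11, adjusted p = 1.89e-06, and -0.71 ± 0.11, adjusted p = 2.06e-04). At 24 h its call was lost without 24 h replicate 1 (adjusted p = 0.00117) or 2 (0.00123) and with only the groups compared (0.00112). COL4A6, transcribed away from COL4A5, was at 11.8 and 15.0 CPM, then 9.76, 9.14 and 9.59 CPM, then 16.1, 17.2 and 21.0 CPM. Its levels were lowest at 12 h and highest at 24 h, with -0.50 at 12 h (adjusted p = 0.014) and 0.43 at 24 h (adjusted p = 0.0291) against DMSO. COL4A1 and COL4A2, the chains of the general basement membrane, were at 16.3 and 9.25 CPM and at 35.5 and 22.2 CPM in the controls. After 12 h COL4A1 was at 21.2, 23.2 and 25.8 CPM (0.87 ± 0.20, adjusted p = 0.00203) and COL4A2 at 54.5, 57.8 and 60.9 CPM (1.00 ± 0.17, adjusted p = 2.2e-04). Both were above the controls then and near them after 24 h (0.11, adjusted p = 0.682, and 0.42, adjusted p = 0.051). The call of COL4A2 was lost without 12 h replicate 3 (adjusted p = 0.00127) and with only the groups compared (0.00179).

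COL7A1, the anchoring fibril collagen, was at 10.6 and 11.0 CPM in PC-3 controls, 3.64, 3.92 and 4.09 CPM after 12 h and 3.20, 3.61 and 4.26 CPM after 24 h. All treated libraries were lower, by 1.48 ± 0.16 (adjusted p = 5.18e-06) and 1.55 ± 0.16 (adjusted p = 6.97e-06) on the log2 scale. FN1 (chr2:216225163-216300796) was at 87.9 and 37.8 CPM in the controls, 63.1, 73.6 and 71.4 CPM after 12 h and 43.9, 47.7 and 52.7 CPM after 24 h. The treated libraries of FN1 lay between the controls (0.14, adjusted p = 0.633, and -0.39, adjusted p = 0.194). COL13A1, a transmembrane collagen, was at 78.5 ± 1.81 CPM under DMSO and 80.0 ± 2.15 CPM after 12 h (SD, n = 2 and n = 3), a log2 fold change of 0.03 ± 0.09 (adjusted p = 0.824). COL18A1, the source of endostatin, was at 92.0 ± 19.3 and 101 ± 6.59 CPM (0.14 ± 0.13, adjusted p = 0.381).

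Between the PDA-66 times, 3 of 26 PC-3 members differed, against 1.41% of genes. COL6A3 fell by 1.36 from 12 h to 24 h (SE 0.14, adjusted p = 5.49e-05) and COL12A1 by 1.12 (SE 0.17, adjusted p = 8.67e-04), while COL4A6 rose by 0.93 ± 0.14 (adjusted p = 8.46e-04). The calls of COL12A1 and COL4A6 were lost without any 1 of the 6 PDA-66 libraries, with an adjusted p of up to 0.00781 for COL12A1 (24 h replicate 3) and 0.00707 for COL4A6 (12 h replicate 3).

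Some markers moved with these members in PC-3. The epithelial sum was 1552 to 1595 CPM in the controls, 940 to 1052 CPM after 12 h and 994 to 1310 CPM after 24 h. The endothelial sum went from 146 to 176 CPM to 23.9 to 24.7 CPM and 47.1 to 52.0 CPM, nearly all of it KDR at 144 ± 26.2 CPM (SD, n = 2) under DMSO, with CDH5, VWF and TEK under 1 CPM. The leukocyte sum went from 103 to 134 CPM to 71.4 to 77.5 CPM and 66.2 to 80.0 CPM, nearly all of it CD68. The smooth muscle sum was 4.09 to 4.12 CPM under DMSO and 2.49 to 3.18 CPM in the treated libraries. The fibroblast sum was at most 2.04 CPM in every PC-3 library. The part of these lists in the results was not tested.

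**Figure D2:**
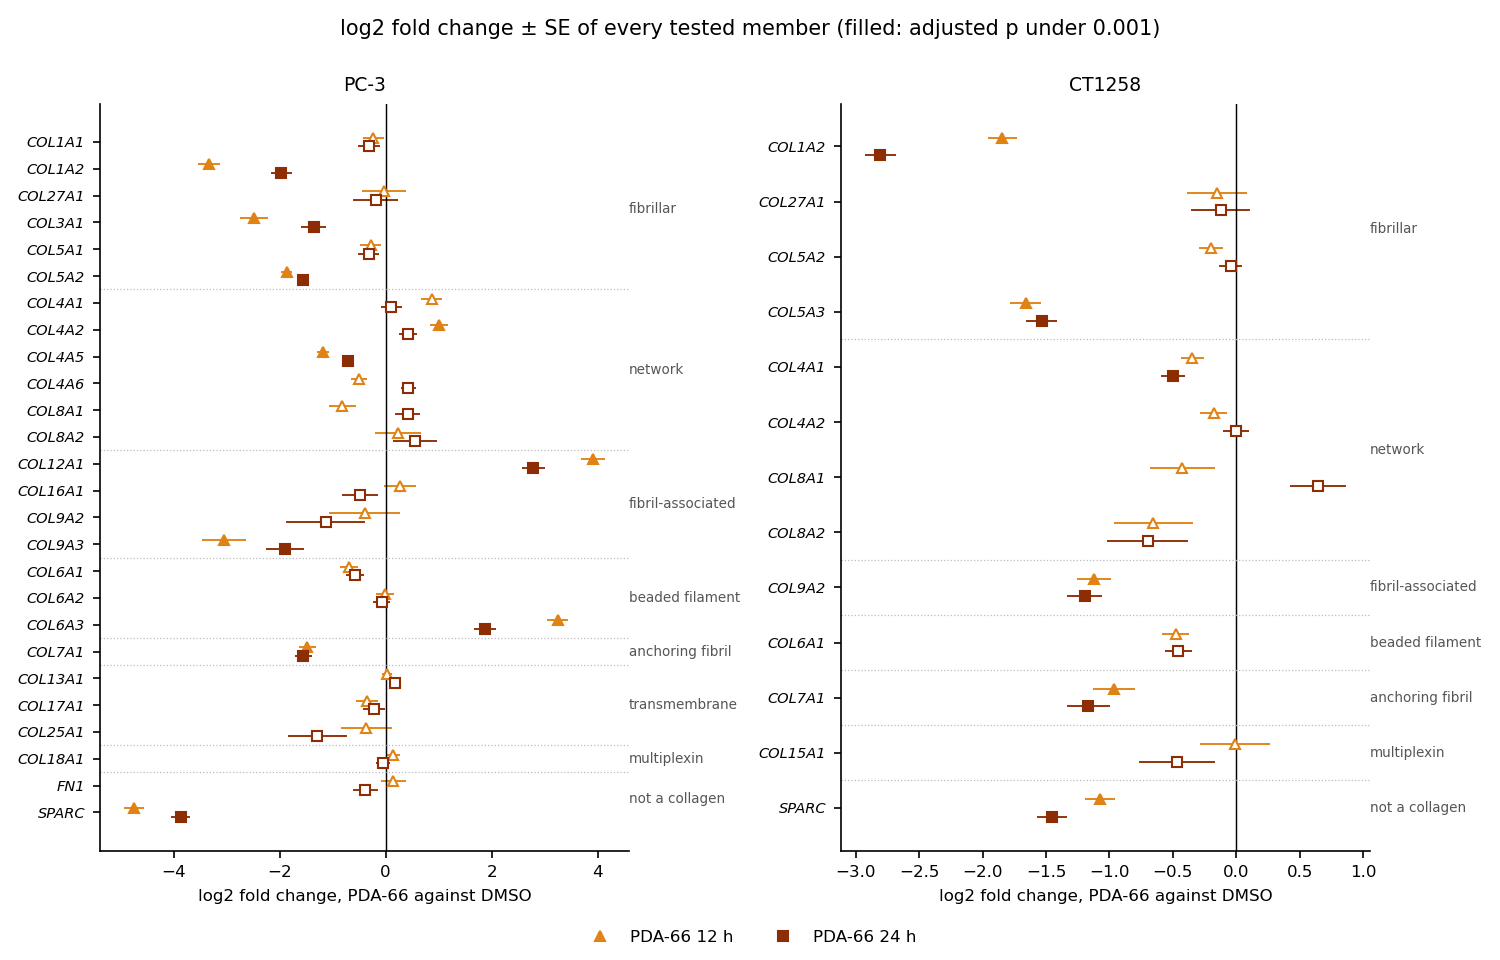
Log2 fold change of every tested member of PC-3 and CT1258 against DMSO at 12 h and 24 h, ordered by collagen class; bars are ± SE and filled points have an adjusted p under 0.001. SPARC and COL1A2 lie left of 0 in both lines, and COL12A1 and COL6A3 lie far right in PC-3.

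In CT1258 every called member fell. After 12 h 5 of 13 members were lower, where 44.3% of the 9886 genes tested were called and 22.1% were lower. After 24 h 6 were lower, where 33.8% were called and 17.2% were lower. The median log2 fold change of the members was -0.48 and -0.50, and of all genes -0.0025 and -0.0068. Libraries did not overlap for 10 of the 13 at 12 h, against 72.8% of genes. No member had an adjusted p under 0.001 in the higher direction.

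COL1A2 was at 87.2, 89.3 and 83.3 CPM in the CT1258 controls, 25.8, 24.5 and 21.9 CPM after 12 h and 10.7, 14.8 and 11.7 CPM after 24 h. All treated libraries were lower and those of 24 h lowest. It fell by 1.85 on the log2 scale at 12 h (SE 0.11, adjusted p = 1.56e-08) and by 2.81 at 24 h (SE 0.12, adjusted p = 1.17e-09), a 6.99-fold difference. From 12 h to 24 h it was 0.96 ± 0.13 lower (adjusted p = 3.31e-04), 1 of 13 members against 2.13% of genes. That call was lost without 12 h replicate 1, 2 or 3 or 24 h replicate 1 or 3, with an adjusted p of up to 0.00341 (12 h replicate 1). COL1A1 had at most 2 reads in any CT1258 library.

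COL5A3, the third chain known for type V collagen, was at 37.0, 41.3 and 35.8 CPM, then 11.2, 13.8 and 11.0 CPM, then 14.2, 11.5 and 13.6 CPM. The groups did not overlap (-1.66 ± 0.13, adjusted p = 9.16e-08, and -1.53 ± 0.12, adjusted p = 2.82e-07). COL5A2 was the highest member, at 574, 627 and 590 CPM under DMSO, 540, 569 and 453 CPM after 12 h and 549, 579 and 608 CPM after 24 h. Its groups at 24 h overlapped (-0.20, adjusted p = 0.0718, and -0.05, adjusted p = 0.687). COL9A2 was at 26.2, 34.3 and 25.3 CPM, then 14.4, 12.2 and 12.8 CPM, then 12.5, 12.7 and 12.2 CPM, and it fell at both times (-1.12 ± 0.14, adjusted p = 6.13e-06, and -1.20 ± 0.14, adjusted p = 6.45e-06).

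SPARC was at 118, 113 and 111 CPM in CT1258 under DMSO, 47.0, 62.4 and 52.5 CPM after 12 h and 45.4, 34.8 and 44.5 CPM after 24 h. Every treated library was lower (-1.07 ± 0.12, adjusted p = 2.3e-06, and -1.45 ± 0.12, adjusted p = 3.2e-07). COL7A1 was at 9.03, 9.20 and 7.95 CPM, 4.93, 3.84 and 4.68 CPM, and 4.42, 3.93 and 3.26 CPM, lower in all treated libraries (-0.96 ± 0.17, adjusted p = 1.43e-04, and -1.17 ± 0.17, adjusted p = 5.08e-05). Without 12 h replicate 2 its 12 h call was lost (adjusted p = 0.00185). COL4A1 was at 57.1, 61.0 and 64.0 CPM under DMSO, 44.9, 51.9 and 46.2 CPM after 12 h and 43.6, 41.6 and 43.5 CPM after 24 h. All treated libraries were below the controls, and the threshold was passed at 24 h (-0.50 ± 0.09, adjusted p = 3.61e-04) but not at 12 h (-0.35, adjusted p = 0.00408). The 24 h call was lost without 24 h replicate 1 (adjusted p = 0.00169), 2 (0.00352) or 3 (0.00234) or DMSO replicate 3 (0.00194), and with only the groups compared (0.00153). Its partner COL4A2 overlapped between groups, from 50.6, 62.4 and 58.1 CPM to 50.2, 54.6 and 46.4 CPM and 59.6, 52.3 and 58.7 CPM (-0.18, adjusted p = 0.143, at 12 h). COL6A1 was at 82.2, 90.5 and 80.8 CPM, 63.0, 61.8 and 57.3 CPM, and 70.6, 52.5 and 61.3 CPM. It was lower in all treated libraries, without passing the threshold (-0.48, adjusted p = 0.00114, and -0.46, adjusted p = 0.00187). LUM, of the fibroblast list, was at 293 ± 30.0 CPM under DMSO and 392 ± 52.0 CPM after 12 h (SD, n = 3). The fibroblast sum of CT1258, from 4 listed markers, was 333 to 429 CPM after 12 h and 361 to 393 CPM after 24 h, above every control. Of those markers THY1, FAP and POSTN were under 1 CPM on average in each group. The smooth muscle sum was 49.9 to 63.5 CPM under DMSO, 81.9 to 92.7 CPM after 12 h and 55.1 to 75.2 CPM after 24 h. Of that list TAGLN was at 27.9, 57.0 and 31.3 CPM on average, while ACTA2 and CNN1 were under 1 CPM on average in each group. The part of these lists in the results was not tested.

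**Figure D3:**
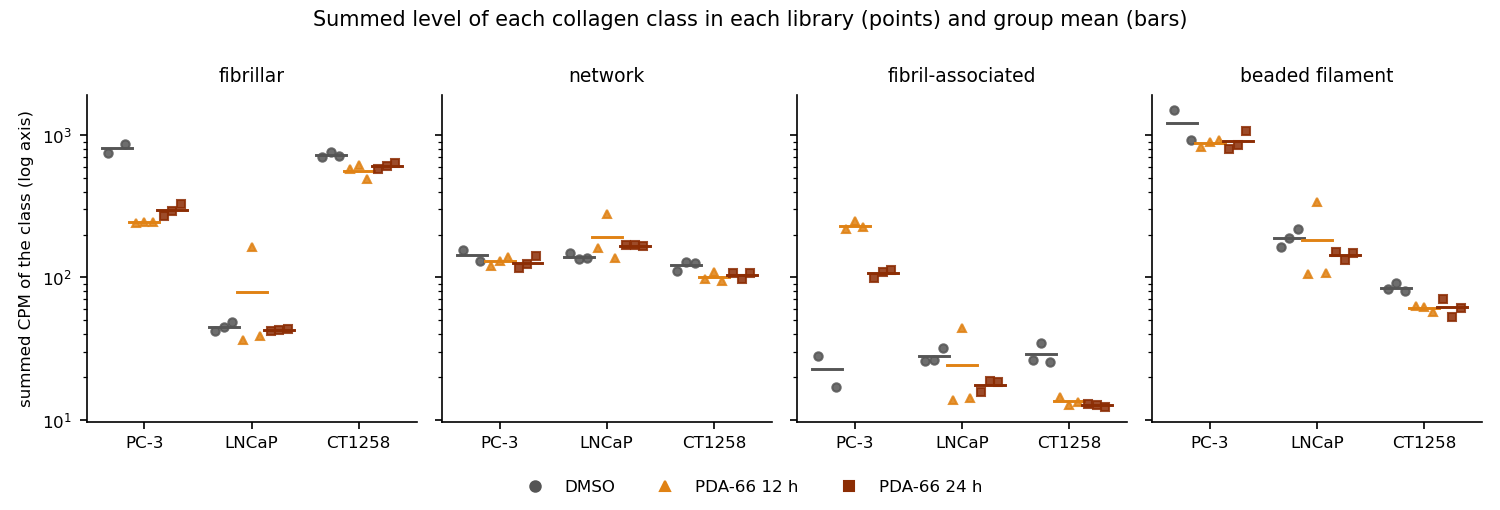
Summed CPM of all listed members of 4 collagen classes per library, by cell line and group, on a log axis; each point is 1 library. In PC-3 the fibrillar sum is lower and the fibril-associated sum higher in every treated library, and in CT1258 the fibril-associated sum is lower in every treated library.

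Summed over the class, fibrillar collagens in PC-3 were at 812 ± 83.8 CPM under DMSO (SD, n = 2), 244 ± 1.94 after 12 h and 297 ± 27.7 after 24 h (SD, n = 3). The fibril-associated sum went from 22.6 ± 7.77 to 231 ± 15.6 and 107 ± 6.52 CPM. The network sum stayed within 116 to 155 CPM in all PC-3 libraries. The fibrillar sum of CT1258 was 704 to 763 CPM under DMSO, 491 to 611 CPM after 12 h and 577 to 639 CPM after 24 h, and the fibril-associated sum was 25.5 to 34.5, 12.7 to 14.4 and 12.3 to 12.9 CPM, with COL9A2 as 99.5% of it under DMSO. The leading gene held from 40.4% of a sum (network, PC-3 after 24 h) to 99.9% (beaded filament, CT1258). COL6A2 and COL6A3 were not listed in CT1258, so its beaded filament sum lacks those chains.

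Count ratios of partner chains differed between the groups in PC-3, by an amount that varied from pair to pair. The usual type I collagen molecule holds more alpha 1 than alpha 2 chains. The ratio of COL1A1 to COL1A2 counts was 0.22 ± 0.07 under DMSO (SD, n = 2), 1.80 ± 0.43 after 12 h and 0.66 ± 0.12 after 24 h (SD, n = 3). COL5A1 to COL5A2 went from 0.06 ± 0.03 to 0.18 ± 0.01 and 0.14 ± 0.01. COL6A1 to COL6A3 went from 447 ± 41.9 to 29.7 ± 2.27 and 81.8 ± 5.94, and COL6A1 to COL6A2 from 3.23 ± 0.16 to 2.03 ± 0.07 at 12 h. Of these pairs COL4A1 to COL4A2 moved least, at a mean of 0.44, 0.41 and 0.36. COL4A5 to COL4A6 was 6.34 ± 1.42, 3.88 ± 0.42 and 2.84 ± 0.22 in PC-3 and 33.8 ± 9.56, 13.0 ± 0.988 and 19.0 ± 1.63 in LNCaP. The ratios are descriptions and were not tested. In CT1258 COL4A1 to COL4A2 was 1.07 ± 0.08, 0.95 ± 0.05 and 0.76 ± 0.03.

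**Figure D4:**
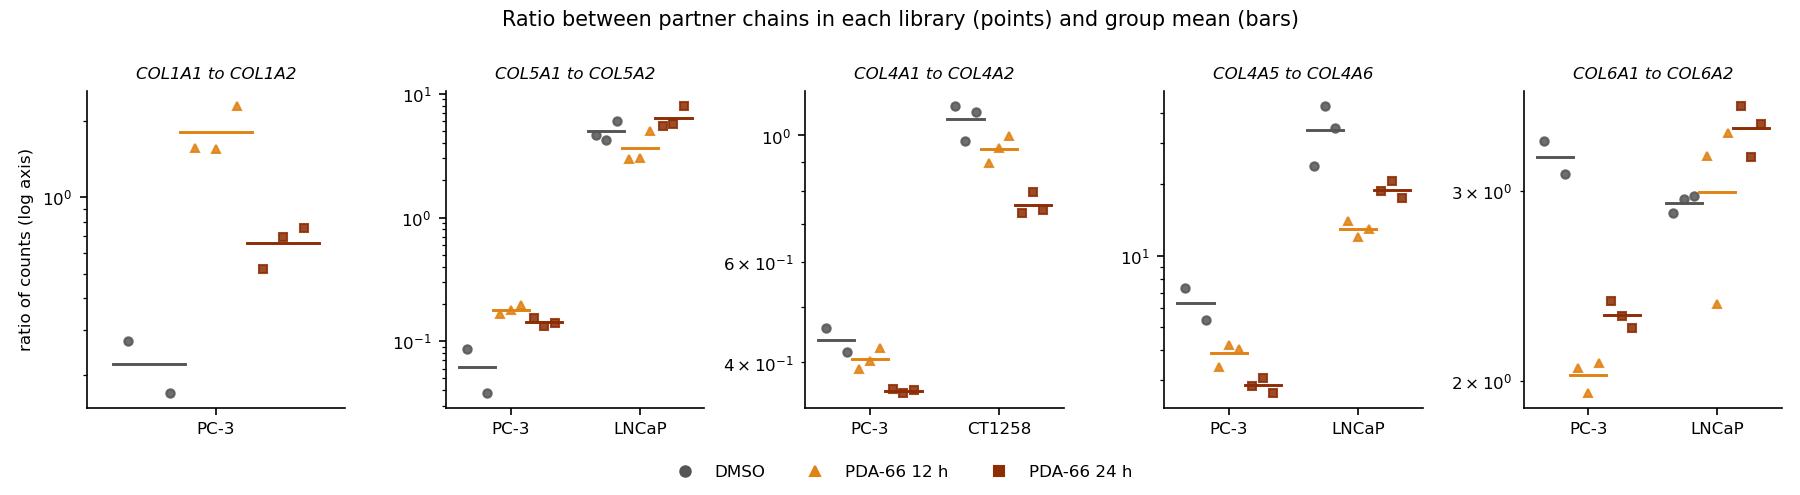
Ratio of counts of the partner chains named above each panel in every library, on a log axis, by cell line and group. COL1A1 to COL1A2 in PC-3 rises from 0.22 under DMSO to 1.80 after 12 h, and COL4A1 to COL4A2 changes least there.

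In LNCaP no member had an adjusted p under 0.001 in edgeR's test at either time, and 1 of 13156 genes did at 12 h (0.0076%) and 0 at 24 h (0%). At 12 h, 4 members had an unadjusted p under 0.05, against 30% of genes, and 2 an adjusted p under 0.05, against 9.14%. DESeq2 called 2 members at 0.001 (COL4A6 and SPARC), against 4.71% of genes, and limma voom with quality weights called 7, 2 higher and 5 lower, against 13.9% of genes. At 24 h, 3 members had an unadjusted p under 0.05 (19.8% of genes), DESeq2 called 0 (2.17%) and voom 3 (11.2%). Between the times edgeR called 0, 3 members had an unadjusted p under 0.05 (6.36%), DESeq2 called 0 (0.0076%) and voom 1 (1.44%).

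SPARC was at 2.75, 0.987 and 1.39 CPM in the LNCaP controls, 5.64, 5.76 and 5.45 CPM after 12 h and 2.10, 3.73 and 2.07 CPM after 24 h. The 12 h libraries were above the controls and the 24 h libraries overlapped with them (1.70 ± 0.37, adjusted p = 0.0241, and 0.60, adjusted p = 0.433). COL4A6 was at 5.79, 2.96 and 3.78 CPM, then 10.6, 21.2 and 9.61 CPM, then 8.40, 7.67 and 8.81 CPM. All treated libraries were above the controls (1.72 ± 0.35, adjusted p = 0.0189, and 0.98, adjusted p = 0.15). Of the members called in PC-3, COL1A2, COL12A1 and COL6A3 were hardly counted in LNCaP, and the others passed its filter. No LNCaP library held more than 1 read of COL1A2, 3 of COL12A1 or 5 of COL6A3. COL4A1, not called in PC-3, had at most 2 reads in any LNCaP library. COL4A5, the leading network collagen, was at 138, 127 and 131 CPM, then 149, 255 and 124 CPM, then 157, 159 and 154 CPM, with the 24 h libraries above the controls (0.25 ± 0.24, adjusted p = 0.636).

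The values of many other members rested on 1 library. In LNCaP 12 h replicate 2, 13 of 21 members (61.9%) were over 2-fold higher than the mean of the other 12 h libraries, against 17.7% of 10190 genes with at least 20 counts in each 12 h library. The members' median log2 difference was 1.54, and that of those 10190 genes -0.04. The members were held to the filter on low counts and not to 20 counts, so these values cover unlike ranges of counts. Among the members, COL23A1 was at 0.453 CPM and COL11A2 at 0.614 CPM on average in the other 12 h libraries. COL1A1 was at 18.5, 125 and 18.8 CPM, COL7A1 at 4.45, 34.2 and 3.95 CPM and COL6A2 at 24.8, 100 and 24.4 CPM in the 12 h replicates, while SPARC was 1.04-fold of the other libraries and FN1 0.76-fold. The rank correlation of this difference with the GC content of the transcript was 0.55 over the 21 members and 0.79 over all those genes, within 1 set of libraries. The part of GC content in it was not tested.

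**Figure D5:**
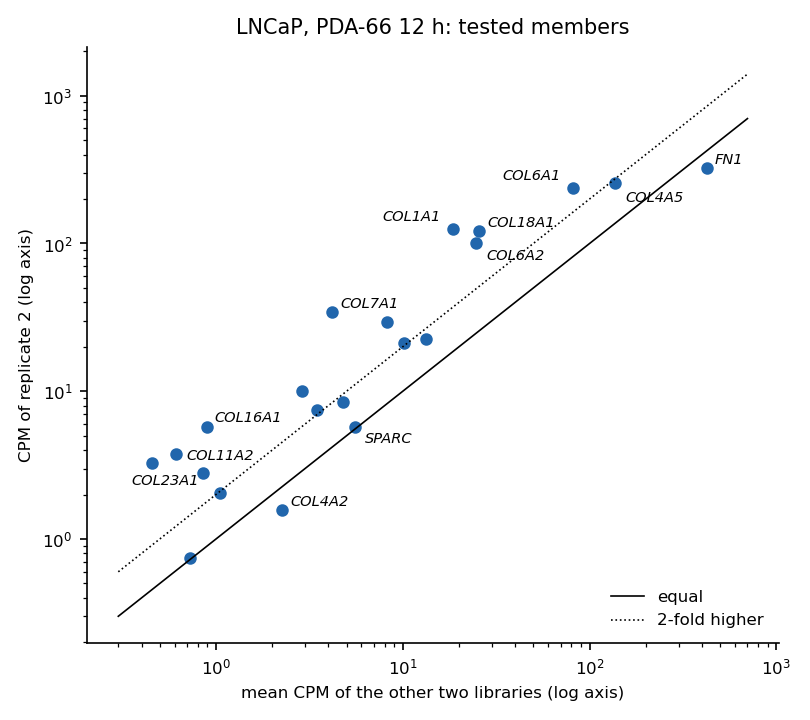
CPM of each of the 21 tested members in LNCaP 12 h replicate 2 against the mean of the other 12 h libraries, both on log axes, with the line of equal levels. Most members lie above the line, 13 of them over 2-fold, and SPARC and FN1 lie near it.

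Without that replicate 22 members were tested and COL6A2 was lower at 12 h (-0.96 ± 0.13, adjusted p = 0.000966, against 0.05 with it), 1 member against 1.96% of genes, and 0 of them differed at 24 h, against 0.787%. At 12 h and an adjusted p under 0.05, 3 were higher and 11 lower, against 29.1% of genes. COL1A1 was then at -0.35 (adjusted p = 0.0959) in place of 1.18, COL7A1 at -1.30 (adjusted p = 0.00499) in place of 0.44, and COL16A1, a fibril-associated collagen, at -2.80 ± 0.52 (adjusted p = 0.00361) in place of -1.36. COL16A1 was at 2.68, 7.32 and 9.03 CPM in the controls, 1.06, 5.76 and 0.717 CPM after 12 h and 0.948, 1.42 and 0.920 CPM after 24 h. Only replicate 2 of its treated libraries was inside the control range. FN1 was at 337, 296 and 354 CPM, 408, 323 and 439 CPM, and 424, 432 and 408 CPM in LNCaP. Its 24 h libraries were above every control (0.36, adjusted p = 0.229).

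Tests of the difference in response compare lines directly over the genes shared by the 3 tables. In this fit 11736 of those genes were tested, 21 members among them. Those that passed the filter in both lines were 11 for PC-3 with LNCaP, 11 for PC-3 with CT1258 and 6 for LNCaP with CT1258. At 12 h the response of 5 members differed between PC-3 and LNCaP (3.57% of genes), all lower in PC-3. COL12A1 and COL6A3, which rose in PC-3, did not pass the filter in LNCaP. COL6A3 was also not listed in CT1258 and so was outside this fit. SPARC differed by -6.39 ± 0.38 (adjusted p = 1.01e-10), COL5A2 by -2.46 ± 0.30 (adjusted p = 5.8e-06) and COL3A1 by -3.53 ± 0.58 (adjusted p = 1.55e-04). COL9A3 (-2.79 ± 0.51, adjusted p = 9.58e-04) and COL4A6 (-2.17 ± 0.39, adjusted p = 6.02e-04) did so in 9 and 18 of 31 alternatives. The call of COL3A1 was lost without PC-3 DMSO replicate 3 (adjusted p = 0.00133). At 24 h 1 member differed (1.23% of genes), SPARC by -4.43 ± 0.38 (adjusted p = 1.08e-07). In a fit over the 2 human tables, chosen after seeing the data, COL3A1, COL5A2 and SPARC were called at 12 h (1.53% of genes) and SPARC at 24 h (0.266%).

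Between PC-3 and CT1258, the response of 3 members differed at 12 h (9.33% of genes) and of 2 at 24 h (4.79%). The response of SPARC in PC-3 minus that in CT1258 was -3.68 ± 0.33 (adjusted p = 2.29e-08) and -2.42 ± 0.32 (adjusted p = 9.51e-06). That of COL5A2 was -1.69 ± 0.26 (adjusted p = 2.69e-05) and -1.52 ± 0.26 (adjusted p = 1.74e-04). The 24 h call of COL5A2 was lost without PC-3 DMSO replicate 3 (adjusted p = 0.00493) or PC-3 24 h replicate 1 (0.00148) or 2 (0.00121). COL1A2 differed by -1.50 ± 0.29 at 12 h (adjusted p = 4.95e-04), a call held in 19 of 30 alternatives and lost without PC-3 DMSO replicate 3 (adjusted p = 0.0152). Between LNCaP and CT1258, SPARC was the 1 member called at each time, 2.71 ± 0.33 (adjusted p = 2.82e-06, 12.8% of genes) and 2.01 ± 0.35 (adjusted p = 3.44e-04, 3.44%). The 24 h call was lost with voom (adjusted p = 0.00107) and without LNCaP DMSO replicate 2 (0.00174) or 3 (0.00175), LNCaP 24 h replicate 2 (0.00193) or CT1258 24 h replicate 2 (0.00145). Species, medium and line cannot be told apart in comparisons with CT1258, and both the aligner and the depth of the controls differed.

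The genes that modify, fold, cut, cross-link, degrade or bind collagen were described from a list of 72. That list also held 11 TGF-beta ligands, receptors and signal carriers and 4 protease inhibitors. In PC-3, 62 were tested, with 9 higher and 10 lower at 12 h (30.6%) and 5 higher and 12 lower at 24 h (27.4%), against 27.6% and 19.3% of all genes, and the medians were -0.07 and -0.19. In CT1258, 43 of 57 listed were tested, with 7 higher and 23 lower at 12 h (69.8%) and 3 higher and 18 lower at 24 h (48.8%), against 44.3% and 33.8% of genes, and the medians were -0.46 and -0.41. Its prolyl and lysyl hydroxylases, which harden the triple helix and prepare cross-links, had 1 higher and 7 lower of 8 at 12 h (median -0.83) and 0 higher and 5 lower at 24 h. In LNCaP 42 were tested with 0 called by edgeR at 12 h, 24 h or between. An unadjusted p under 0.05 was reached by 11, 9 and 7, against 30%, 19.8% and 6.36% of genes. An adjusted p under 0.05 was reached by 4 at 12 h, against 9.14% of genes, and by 0 at 24 h or between.

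In PC-3, P4HA1, the catalytic chain of prolyl 4-hydroxylase, fell by 1.44 at 12 h (SE 0.12, adjusted p = 4.83e-07) and by 1.73 at 24 h (SE 0.12, adjusted p = 2.47e-07), and P3H2, a prolyl 3-hydroxylase, rose by 1.81 ± 0.16 (adjusted p = 1.1e-06) at 12 h. CREB3L1, a transcription factor of the secretory pathway known to drive type I collagen genes, fell by 2.25 (SE 0.14, adjusted p = 4.53e-08) and 1.58 (SE 0.14, adjusted p = 2.03e-06). The export factor MIA2 was at -2.52 ± 0.42 at 12 h (adjusted p = 1.91e-04). TLL1, a procollagen protease, was at -1.46 ± 0.14 (adjusted p = 1.73e-06) and -1.70 ± 0.14 (adjusted p = 1.27e-06), and ADAMTS3, another, at 0.97 ± 0.14 (adjusted p = 7.58e-05) and 1.00 ± 0.14 (adjusted p = 8.6e-05). LOX, which cross-links collagen, fell at 24 h (-1.25 ± 0.11, adjusted p = 2.41e-06), and TGM2, a transglutaminase, rose at 12 h (1.80 ± 0.26, adjusted p = 6.42e-05). MMP14, a membrane collagenase, rose (1.61 ± 0.17, adjusted p = 4.43e-06, and 1.06 ± 0.16, adjusted p = 1.81e-04), and CTSK, cathepsin K, fell (-1.81 ± 0.31, adjusted p = 2.4e-04, and -1.63 ± 0.30, adjusted p = 6.72e-04). The collagen receptor gene ITGA10 fell (-1.29 ± 0.21, adjusted p = 1.79e-04). TGFBR1, a TGF-beta receptor, rose by 1.06 ± 0.14 at 12 h (adjusted p = 2.93e-05).

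In CT1258, CREB3L1 fell as well (-1.55 ± 0.09, adjusted p = 1.49e-08, and -1.69 ± 0.10, adjusted p = 1.1e-08). The lysyl hydroxylase PLOD3 was at -1.18 ± 0.10 at 12 h (adjusted p = 2.25e-07) and P4HB, a subunit of prolyl 4-hydroxylase, at -1.04 ± 0.09 (adjusted p = 3.82e-07). FKBP10, a collagen chaperone, was at -0.89 ± 0.09 (adjusted p = 1.75e-06), and PCOLCE, which speeds removal of the procollagen C-propeptide, at -1.43 ± 0.15 (adjusted p = 1.61e-06). FURIN was at -0.59 ± 0.09 at 24 h (adjusted p = 4.77e-05). LOXL3 was at -1.12 ± 0.17 (adjusted p = 4.17e-05) and LOXL1 at -0.66 ± 0.10 (adjusted p = 6.36e-05) at 12 h. DDR2, a collagen receptor kinase, was at -1.31 ± 0.14 (adjusted p = 2.43e-06), and ITGA10 at -0.90 ± 0.15 (adjusted p = 1.2e-04). MMP1, the collagenase, rose (1.34 ± 0.19, adjusted p = 2.11e-05, and 1.53 ± 0.18, adjusted p = 9.49e-06). PEPD, the prolidase, fell by 0.83 at both times (SE 0.11, adjusted p = 1.23e-05 at 12 h). TGFBR1 was at 0.92 ± 0.10 (adjusted p = 2.87e-06), SMAD3, a TGF-beta signal carrier, at -0.74 ± 0.10 (adjusted p = 1.6e-05), and TIMP2, a metalloprotease inhibitor, at -0.46 ± 0.09 at 24 h (adjusted p = 3.56e-04).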

How the data were processed

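Poly(A) RNA of 3 cell lines had been sequenced by the authors as single reads of 75 bases, with reads aligned by STAR 2.3.1s to hg19 (human) or by BWA to CanFam3.1 (canine) per the labels and the study's methods. The authors deposited whole-number gene counts in 1 table per line. Whether counting used strand is not given in the sources used here, and SPARC, COL9A3 and COL18A1 share exon bases with genes on the other strand (4.12%, 3.20% and 18.5%). The labels name 27 samples and counts of 26 libraries were used. Per the study's methods the replicates of a condition were biological and independent of each other; the labels do not say so. No 2 libraries were identical. Of the PC-3 12 h libraries, 2 (P12-1 and P12-2) have no clear replicate number. In 1 PC-3 library's column, 7 trailing separators were removed.

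Counts were tested with edgeR 4.0.16 (R 4.3.3; quasi-likelihood F test, TMM, filterByExpr, Benjamini-Hochberg over all genes tested, threshold adjusted p under 0.001), 1 fit per line over its 3 groups, 1 fit of the 6 human groups, and 1 fit over the shared genes of all 9 groups for differences in response. SE is the fold change divided by the root of F and is approximate. CPM divides counts by the total of tested genes times the TMM factor; levels between lines were scaled separately. The estimated biological variation between libraries (coefficient) was 0.0971 for PC-3, 0.240 for LNCaP, and 0.100 for the canine line. The SE takes in the estimated variation between libraries, while the limit of 3 counts covers counting error only. The statistics were tested on simulated data with known changes. Those data had the same variation for every gene and no library set apart from its group, unlike the libraries here. The members and lists were chosen with earlier results of these data known. Named with full values were members with an adjusted p under 0.001 and a log2 fold change of at least 1 in PC-3 or CT1258 (under 0.05 in LNCaP), at most 12 per line, partner chains, SPARC and FN1. From the collagen pathway list, up to 2 genes per role were named. Some genes of the pathway and marker lists are not reported here by name. Values outside that rule (COL5A1, COL4A6, COL13A1 and COL18A1 in PC-3, COL5A2 in CT1258, COL4A5, COL7A1 and COL16A1 in LNCaP) were chosen after they were seen. Alternatives were DESeq2 1.42.0 (size factors, Wald test), library size only, 2 other filters, limma 3.58.1 voom with quality weights, only the 2 groups compared, an adjusted p under 0.05, a log2 fold change of at least 1, a replicate block, each library left out, thinned CT1258 controls and, chosen after seeing the data, a fit over the 2 human tables. Python 3.11.15 was used for tables and figures.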

Additional observations from a re-analysis of the deposited data

Results flagged for a closer look

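Values between lines are differences in response, the log2 fold change against DMSO in the first line minus that in the second, and not levels. These results are listed because a test found a difference between lines or between exposure times, in edgeR's quasi-likelihood test. The response of SPARC was lower in PC-3 than in LNCaP by -6.39 at 12 h and -4.43 at 24 h on the log2 scale, and lower than in CT1258 by -3.68 and -2.42. The response of SPARC was higher in LNCaP than in CT1258 by 2.71 at 12 h and 2.01 at 24 h. The response of COL5A2 was lower in PC-3 than in LNCaP by -2.46 at 12 h, and than in CT1258 by -1.69 and -1.52. The responses of COL3A1 (-3.53), COL9A3 (-2.79) and COL4A6 (-2.17) were lower in PC-3 than in LNCaP at 12 h, and that of COL1A2 lower in PC-3 than in CT1258 at 12 h by -1.50. Between exposure times in PC-3, COL6A3 was at -1.36, COL12A1 at -1.12 and COL4A6 at 0.93 for 24 h minus 12 h, and in CT1258 COL1A2 was at -0.96. Groups had at most 3 libraries, too few for a test of a library far from the others.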

How the results depend on the processing

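The counts of members called were within 1.5 times the value above under every alternative run for PC-3 at 12 h and 24 h, CT1258 at 12 h and 24 h, and PC-3 against LNCaP under DMSO. The others changed as follows. For PC-3 24 h against 12 h (3 members), the count was 10 at an adjusted p under 0.05, 5 with DESeq2, 12 with voom, 6 with only the 2 groups, and 1 to 7 without 1 library (1 without any PDA-66 library, 6 and 7 without DMSO replicate 2 and 3). For CT1258 24 h against 12 h (1 member), it was 3 at 0.05, 0 with a log2 fold change of at least 1, 2 with voom and 0 to 1 without 1 library. In LNCaP, it was 2 at 0.05, 2 with DESeq2, 7 with voom and 0 to 1 without 1 library at 12 h, 3 with voom at 24 h, and 1 with voom between the times. COL6A2 in LNCaP at 12 h reversed, to -1.02 with voom and -0.96 without 12 h replicate 2, with values of up to 0.38 (without 12 h replicate 3) when 1 library was left out. Counts of differences in response cover all 21 members tested, those that passed the filter in 1 line too. LNCaP with CT1258 gave 3 at 0.05 and 3 with voom at 12 h, and 0 with voom and 0 to 1 without 1 library at 24 h. PC-3 with CT1258 gave 5 at 0.05, 5 with DESeq2, 8 with voom and 2 to 5 without 1 library at 12 h, and 1 to 2 without 1 library at 24 h. PC-3 with LNCaP gave 8 at 0.05, 3 in the fit over the 2 human tables and 2 to 6 without 1 library at 12 h, and 2 at 0.05, 2 with DESeq2 and 1 to 2 without 1 library at 24 h. Of members that passed in both lines, 6 for PC-3 with LNCaP and 2 for LNCaP with CT1258 were at 0.05 at 12 h. For PC-3 with CT1258 at 24 h, 3 of them were. The cause of these changes was not tested. The fibrillar sum of LNCaP at 12 h was 37.6 CPM without replicate 2 and 79.3 CPM with it, and the fibril-associated sum 14.1 and 24.1 CPM.

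Replicate numbers showed no clear pairing of the samples. The same-number correlations of deviations were -0.19 to 0.15 in CT1258, -0.42 to 0.18 in LNCaP and -0.11 to 0.08 in PC-3. Those of different numbers reached 0.45 in LNCaP (DMSO replicate 2 with 12 h replicate 1). Deviations within so small a group are tied to each other, so these values cannot exclude a pairing. With a replicate block 8 members were called in PC-3 at 24 h. The block left LNCaP at 0 in its 3 comparisons and gave 5 for CT1258 at 12 h, 5 at 24 h and 1 between the times. The block was not run for PC-3 at 12 h or between times, since too few of those libraries carry a number. Under the block, COL4A5 in PC-3 at 24 h had an adjusted p of 0.0155 and COL4A1 in CT1258 0.0011.

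In PC-3 20 of 46 members and in LNCaP 25 of 46 were below the filter on low counts and thus untested; low expression and limited depth cannot be told apart there.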
